A study of Chlamydomonas reinhardtii with 12 samples.

Results

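Photosystem II is the thylakoid complex that uses light to take electrons from water and pass them to plastoquinone. Its reaction-centre proteins are encoded in the chloroplast, and its outer subunits and some of its small ones in the nucleus. The genes described here are 6 of these nuclear-encoded subunits, taken by identifier from the 17744 identifiers in the count table: PSBO1 (Cre09.g396213), PSBP1 (Cre12.g550850), PSBQ1 (Cre08.g372450), PSBR1 (Cre06.g261000), PSBX (Cre02.g082750) and PSBY1 (Cre10.g452100). PSBO, PSBP and PSBQ form the shield on the lumen side that protects the manganese-calcium cluster where water is oxidised. PSBR is a small membrane-anchored protein of the lumen side, and PSBX and PSBY are small membrane subunits with a single span. Carotenes are bound in the photosystem cores and xanthophylls in the antennae, and Chlamydomonas, unlike flowering plants, can make chlorophyll in darkness. The symbols come from the gene list of this work, since neither the count table nor the RefSeq gene table used here gives them.

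Polyadenylated RNA of the green alga Chlamydomonas reinhardtii was counted by CEL-Seq, a method that reads transcript 3' ends, in 12 libraries of liquid cultures held at 25 °C in the dark for 4 weeks. Of these, 6 WT libraries were of the parental line CC-3403, grown in acetate medium (TAP) with 10 µg/mL arginine. The other 6 were of phytoene desaturase knockouts (PDSKO) made from that line with Cas9 ribonucleoprotein, grown in TAP without arginine and sorted by flow cytometry to remove transformants that carried the plasmid without the knockout, as well as possible revertants. PDSKO 1 to 4 were of line E10 and are called E10 1 to 4 here, PDSKO 5 was of line A2 and PDSKO 6 of line D2, so each of A2 and D2 had 1 library. All samples are labelled vegetative cells, a label with no marker tested here. By their titles, WT 1 to 3 and E10 form a first set and WT 4 to 6, A2 and D2 a second, and the titles of WT 1 to 3 carry a strain number other than that of the labelled line. Genotype cannot be told apart from arginine, from the plasmid or from sorting, since all of these differed between the same groups.

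Depth differed greatly between the genotypes. Total counts were 1393032 to 35992976 in WT and 6279 to 475103 in PDSKO, so that 1 count stood for 0.0278 to 0.718 CPM, the counts scaled to a total of 1e6 per library, in WT and for 2.10 to 159 CPM in PDSKO. The targeted gene (Cre12.g509650) stood at 21.6 to 113 CPM in the WT libraries, at 0 counts in A2 and D2, and at 0, 2, 0 and 2 counts in E10 1 to 4, where 3 counts, the floor used for a count of 0, would be 74.2 CPM in the deepest of them. Over the 4 E10 libraries together it had 49.3 CPM (95% Poisson interval 13.4 to 126 CPM), and where the reads lie relative to the edited site is not given, so these counts do not check the knockout of E10. The labels do not tell separate cultures from repeat libraries, and every p-value below therefore speaks of the spread among these samples, which may be technical. In bulk RNA, fewer cells that make a transcript and less transcript per cell cannot be told apart.

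E10 1, E10 3 and E10 4 correlated more closely with particular WT libraries of the first set than with the other E10 libraries. Over the 1038 identifiers with a mean of at least 100 CPM in WT, the counts of E10 1 had a Spearman rho of 0.87 with those of WT 1 and of 0.53 with WT 2 and WT 3. E10 3 and E10 4 had 0.85 to 0.86 with WT 2 and WT 3 and 0.52 to 0.54 with WT 1, and the shallow E10 2 had 0.66 and 0.65 with WT 2 and WT 3 and 0.42 with WT 1. Within the line, E10 1 had 0.43 to 0.51 with the other E10 libraries, and E10 2 to 4 had 0.58 to 0.78 with one another. Between shallow E10 libraries counting error enters both sides, and against a deep WT library mainly 1 side. The part of depth in the order of these values was not tested. WT 2 and WT 3 had 0.98 with each other, 0.56 to 0.57 with WT 1 and 0.30 to 0.37 with WT 4 to 6. A2 reached at most 0.46 with any WT library and D2 at most 0.57. These are correlations across genes, which are not replicates, and the part of this likeness in the results below was not tested. Whether reads of the far deeper WT libraries were counted in the shallow E10 libraries was not tested either, and all E10 levels, shares and fold changes below are those of the libraries as labelled.

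**Figure D1:**
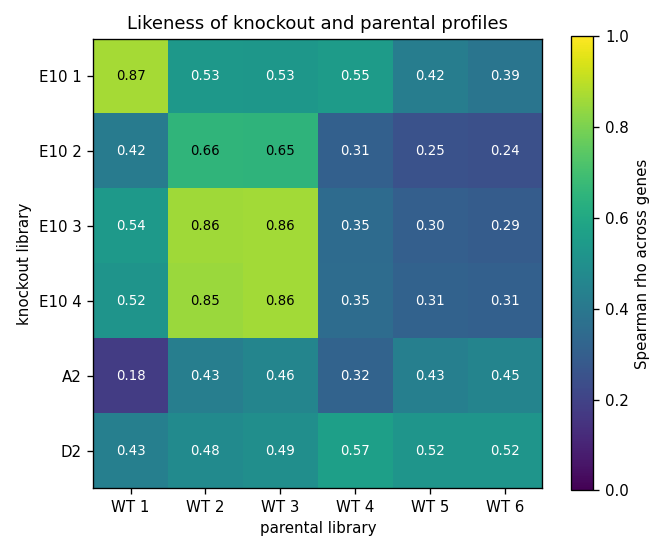
Spearman rho between the counts of each knockout library (rows) and each parental library (columns) over 1038 identifiers with a mean of at least 100 CPM in WT, with the value in each cell. E10 1 stands out with WT 1 at 0.87, and E10 3 and E10 4 with WT 2 and WT 3 at 0.85 to 0.86.

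PSBO1 encodes the manganese-stabilising protein, without which Chlamydomonas does not accumulate photosystem II. Its level was 4881 CPM in WT 1, 825 in WT 2 and 793 in WT 3, and 4771, 3583 and 3986 CPM in WT 4, 5 and 6. In E10 1 to 4 it was 3265, 159, 718 and 796 CPM, in A2 1227 CPM and in D2 1026 CPM. WT 1, WT 4 to 6 and E10 1 were thus the libraries with high levels, and WT 2 and WT 3 lay below A2 and beside E10 3 and E10 4. They were also below D2, but within its 95% Poisson interval of 722 to 1414 CPM. The value of E10 2 rests on 1 count, with a 95% Poisson interval of 4.03 to 887 CPM, which covers counting error only, as do the other intervals given here.

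PSBP1 and PSBQ1 are the other extrinsic subunits and help to hold calcium and chloride at the water-oxidising site. PSBP1 stood at 7127, 2027 and 1705 CPM in WT 1 to 3, at 6915, 7166 and 7545 CPM in WT 4 to 6, at 3413, 796, 1712 and 1837 CPM in E10 1 to 4, at 2109 CPM in A2 and at 3272 CPM in D2. PSBQ1 stood at 6158, 1885 and 1509 CPM in WT 1 to 3, at 5554, 6311 and 6091 CPM in WT 4 to 6, at 2819.8, 796, 1436 and 857 CPM in E10 1 to 4, at 1686 CPM in A2 and at 4159.5 CPM in D2. In both genes WT 2 and WT 3 were again low and WT 1 high. D2 had more PSBQ1 than A2, with Poisson intervals of 3520 to 4881 CPM and 1571 to 1807 CPM. A single other identifier, Cre07.g323800, took 43.3% of the A2 counts and 4.38% of those of D2, and with it left out of the totals PSBQ1 was still higher in D2, at 4350.1 CPM (3682 to 5105) against 2972 CPM (2770 to 3185). The order of PSBP1 rests on that identifier: it was higher in D2 with it, and without it stood at 3422 CPM in D2 (2833 to 4098) and 3718 CPM in A2 (3491 to 3955), intervals that overlap.

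PSBR1, which in Arabidopsis is needed for stable binding of PSBP and PSBQ, varied least among the parental libraries. It stood at 4000.3, 2775 and 2676 CPM in WT 1 to 3, at 4430.2, 4814 and 5197 CPM in WT 4 to 6, and at 3488, 1433, 2486 and 3858 CPM in E10 1 to 4. The level of A2 was 511 CPM (Poisson 449 to 580) and that of D2 was 1719 CPM (Poisson 1318 to 2204). A2 was below every other library. With Cre07.g323800 left out of its total A2 had 902 CPM (792 to 1022), which lies within the Poisson interval of E10 2 (655 to 2721 CPM).

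PSBX and PSBY1, whose proteins lie near cytochrome b559 at the edge of the complex, had the lowest counts in most libraries and differed from each other in the parental line. PSBX was at 194, 11.6 and 14.3 CPM in WT 1 to 3, at 206, 312 and 242 CPM in WT 4 to 6, at 16.8 CPM in A2 on 8 counts and at 55.5 CPM in D2 on 2 counts. In E10 it had 7, 0, 2 and 1 counts, or 123 CPM over the 4 libraries together (Poisson interval 59.1 to 227 CPM). The 0 of E10 2 has a Poisson upper limit of 587 CPM, and the floor of 3 counts would be 478 CPM there. PSBY1 was at 1439.7, 678 and 626 CPM in WT 1 to 3, at 857, 746 and 468 CPM in WT 4 to 6, at 495, 159, 387 and 429 CPM in E10 1 to 4, at 269 CPM in A2 and at 222 CPM in D2. Among the parental libraries WT 2 and WT 3 were by far the lowest for PSBX, whereas for PSBY1 they lay among WT 4 to 6. A single count stands for 24.7 to 159 CPM in the E10 and D2 libraries, so a PSBX level as low as in WT 2 and WT 3 could not be seen there. The Poisson interval of A2 for PSBX (7.27 to 33.2 CPM) covers both WT 2 and WT 3.

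**Figure D2:**
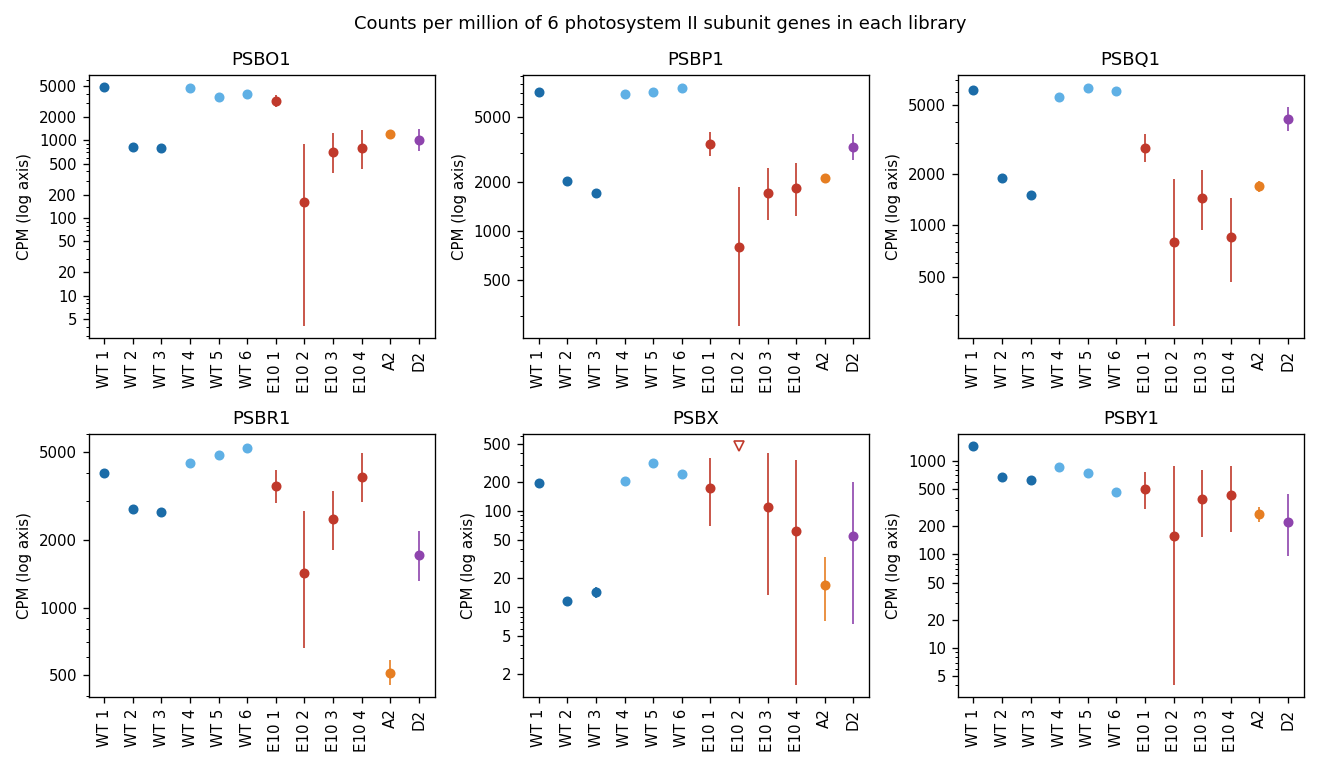
CPM (log axis) of each gene in the 12 libraries, with dark blue for WT 1 to 3, light blue for WT 4 to 6, red for E10, orange for A2 and purple for D2. Bars are 95% Poisson intervals, and the open triangle marks the 478 CPM that 3 counts would give in E10 2, where PSBX had 0. WT 2 and WT 3 lie far below the other parental libraries for PSBO1, PSBP1, PSBQ1 and PSBX.

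Across the 6 genes, WT 1 had 15.0 times the mean PSBX level of WT 2 and WT 3, 6.03 times that of PSBO1, 3.82 times that of PSBP1, 3.63 times that of PSBQ1, 2.21 times that of PSBY1 and 1.47 times that of PSBR1. The mean of WT 4 to 6 exceeded that of WT 2 and WT 3 in the same order except for PSBY1, where the ratio was 1.06. WT 2 and WT 3 were singled out here by their values, so these ratios are a description. The make-up of the counts changed with them. PSBR1 took 16.8% of the counts of the 6 genes in WT 1 (95% Wilson interval 16.7 to 16.9%) and 19.5 to 22.1% in WT 4 to 6, but 33.8% in WT 2 (33.7 to 34.0%) and 36.5% in WT 3 (36.3 to 36.8%). In E10 its share was 25.5% in E10 1 (22.1 to 29.3%), 42.9% in E10 2 (24.5 to 63.5%), 36.3% in E10 3 (28.4 to 45.0%) and 49.2% in E10 4 (40.7 to 57.8%).

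A2 and D2 differed in make-up from WT 4 to 6, though not in every gene. PSBR1 took 8.79% of the counts of the 6 genes in A2 (7.79 to 9.90%) and 16.4% in D2 (13.0 to 20.5%). The D2 interval holds the 16.8% of WT 1 and the 19.5% of WT 4. PSBQ1 took 39.8% in D2 (35.0 to 44.8%), against 24.4 to 27.5% in WT 4 to 6. In A2 it took 29.0% (27.3 to 30.7%), an interval that holds the 27.5% of WT 5. PSBO1 took 9.81% in D2 (7.20 to 13.2%) and 21.1% in A2 (19.6 to 22.6%), so the 2 lines of the second set also differed from each other beyond counting error. In the parental libraries PSBO1 took 15.6 to 21.0% in WT 4 to 6, 20.5% in WT 1, 10.1% in WT 2 and 10.8% in WT 3. As reads come from 3' ends and are not scaled by length, these shares compare libraries and not the abundance of one gene with another.

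**Figure D3:**
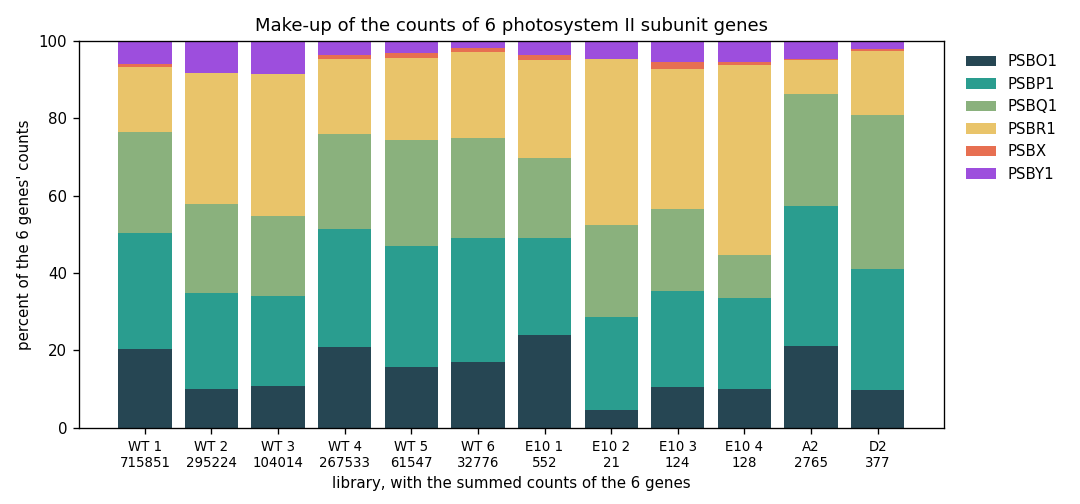
Percent of the summed counts of the 6 genes taken by each gene, per library, with the summed count under each name. PSBR1 (yellow) takes 33.8 to 49.2% in WT 2, WT 3 and E10 2 to 4, 16.8 to 25.5% in WT 1, WT 4 to 6 and E10 1, 8.79% in A2 and 16.4% in D2.

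The comparison of all PDSKO with all WT libraries is that of the labelled genotypes, from which arginine, the plasmid and sorting cannot be told apart. The levels were 3140 ± 1869 CPM in WT and 1199 ± 1075 CPM in PDSKO for PSBO1, 5414 ± 2758 and 2190.1 ± 997 CPM for PSBP1, and 4585 ± 2255 and 1959 ± 1304 CPM for PSBQ1 (SD, n = 6 each). For PSBR1 they were 3982 ± 1052 and 2249 ± 1276 CPM, for PSBX 163 ± 124 and 69.5 ± 63.7 CPM, and for PSBY1 803 ± 338 and 327 ± 130.0 CPM (SD, n = 6 each). The groups overlapped for every gene, while 2.99% of all identifiers tested had each PDSKO library below each WT library. The nearest to a separation was PSBY1, for which 5 of 6 PDSKO libraries lay below the lowest WT library, WT 6 at 468 CPM, and E10 1 just above it. Among these, E10 2 to 4 had 1, 7 and 7 counts, with Poisson upper limits of 797 to 887 CPM, above WT 6. A2 and D2 had upper limits of 320 and 437 CPM, below it. With Cre07.g323800 left out of the A2 total alone, A2 was at 475 CPM (396 to 565). In edgeR's quasi-likelihood test none of the 6 genes passed an adjusted p of 0.05, nor did any of the 4915 identifiers tested (0%). The log2 fold changes, on which a negative value is lower in PDSKO, lay between -1.39 ± 0.68 (SE) for PSBQ1 and -1.74 ± 0.88 for PSBX, with edgeR adjusted p of 0.144 for PSBR1 to 0.263 for PSBX. Their median was -1.52, beside -0.38 over all identifiers tested.

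Before adjustment, 1006 of the 4915 identifiers had p under 0.05, DESeq2 called 310 higher and 39 lower and limma-voom called 0, with none of the 6 genes in either. Without E10 1, the knockout library most like WT 1, PSBR1 had -2.15 ± 0.59 (edgeR adjusted p = 0.0415) and PSBY1 -2.18 ± 0.67 (adjusted p = 0.0477), while 632 of 6777 identifiers (9.33%) were called. With the filter on low counts removed PSBP1, PSBR1 and PSBY1 passed (edgeR adjusted p = 0.0464, 0.0295 and 0.0329), beside 7.86% of all identifiers, and there the median of all identifiers was -1.75.

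PSBR1 and PSBX were called lower in lines A2 and D2 than in WT 4 to 6, which share their title set. The fit takes the 1 library of each line as replicates. PSBR1 and PSBX were 2 of 6 genes called, beside 10.9% of the 8042 identifiers tested, 7.49% lower and 3.38% higher. With scaling by library totals alone neither passed (edgeR adjusted p = 0.0852 for PSBR1 and 0.0626 for PSBX). Both lines lay below all 3 parental libraries in CPM for each of the 6 genes, as they did for 41.0% of all identifiers tested. With Cre07.g323800 left out of the A2 total, PSBY1 in A2 was at 475 CPM (Poisson 396 to 565). That interval holds the 468 CPM of WT 6, whose total kept the identifier. PSBR1 was at 4814 ± 383 CPM in WT 4 to 6 (SD, n = 3), 9.41 times the level of A2 (8.30 to 10.7 by counting error) and 2.80 times that of D2 (2.18 to 3.65). Its log2 fold change was -2.88 ± 0.70 (SE, edgeR adjusted p = 0.0216), lower in 2 of 2 libraries. PSBX was at 253 ± 54.0 CPM in WT 4 to 6 (SD, n = 3), 15.0 times the level of A2 (7.64 to 34.9) and 4.57 times that of D2 (1.26 to 37.7). Its log2 fold change was -3.63 ± 1.06 (SE, edgeR adjusted p = 0.0393), lower in 2 of 2 libraries, on 8 and 2 counts.

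The extrinsic subunits did not pass. WT 4 to 6 had 4113 ± 604 CPM of PSBO1 (SD, n = 3), 3.35 times A2 and 4.01 times D2, and its log2 fold change was -2.16 ± 0.72 (SE, edgeR adjusted p = 0.0566). For PSBP1 the parental level was 7209 ± 317 CPM, 3.42 times A2 and 2.20 times D2, with -1.94 ± 0.63 (adjusted p = 0.0529). For PSBQ1 it was 5985 ± 389 CPM, 3.55 times A2 and 1.44 times D2, with -1.70 ± 0.63 (adjusted p = 0.0753). PSBY1 had 690.4 ± 200.3 CPM in WT 4 to 6, 2.56 times A2 and 3.11 times D2, with -1.73 ± 0.85 (adjusted p = 0.156). The 6 genes had a median log2 fold change of -2.05, beside -0.92 over all identifiers tested.

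The ratios to A2 depend on Cre07.g323800. With it left out of every total they were 5.57 for PSBR1, 8.91 for PSBX, 2.10 for PSBQ1, 2.02 for PSBP1, 1.98 for PSBO1 and 1.51 for PSBY1, while the edgeR test without it called the same 2 of the 6 genes. Both calls ended when WT 4, WT 5 or WT 6 was left out (edgeR adjusted p of 0.0752 to 0.2196 for PSBR1 and 0.108 to 0.281 for PSBX), and in the 12-library fit with 4 groups, with adjusted p of 0.0979 and 0.106. Of all identifiers, 0.232 to 1.60% were called with a WT library left out and 12.7% in the 4-group fit. Without A2 or without D2, where the lone knockout library is assumed to vary like the parental ones, 5 of the 6 genes passed, beside 7.64% and 22.6% of all identifiers, whose median log2 fold change was -7.58 and -1.30.

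**Figure D4:**
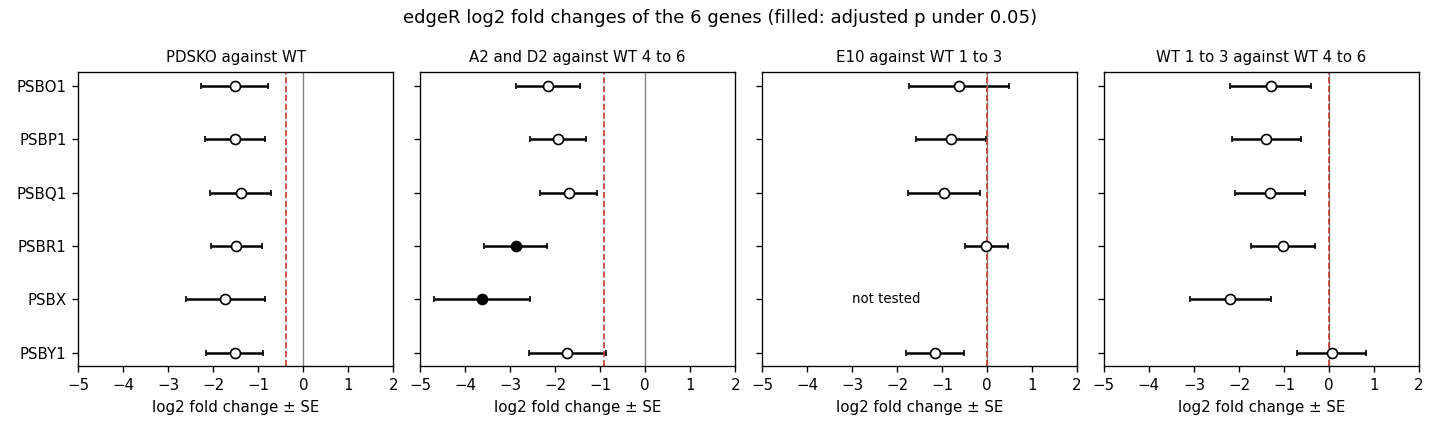
edgeR log2 fold change (horizontal axis) with its standard error for each of the 6 genes in 4 comparisons, filled where the adjusted p was under 0.05. The red dashed line is the median of all identifiers tested in that comparison, at -0.38, -0.92, -0.0084 and -0.0038 from left to right. PSBR1 and PSBX in A2 and D2 are the filled points.

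For line E10, whose title set holds WT 1 to 3, none of the 6 genes passed, nor did any of the 449 identifiers with enough counts to be tested (0%). In these 449, 6 had an unadjusted p under 0.05, DESeq2 called 1, which was not among the 6 genes, and limma-voom 0. PSBX had too few counts for the test. The other 5 log2 fold changes ran from -0.02 ± 0.48 (SE) for PSBR1 to -1.15 ± 0.64 for PSBY1, each with an edgeR adjusted p of 0.994, and had a median of -0.79, beside -0.01 over all identifiers tested. PSBY1 was at 915 ± 455 CPM in WT 1 to 3 (SD, n = 3) and 367 ± 146 CPM in E10 (SD, n = 4), and was the 1 gene of the 5 tested for which all E10 libraries lay below all 3 parental ones, as was the case for 3.34% of the 449 identifiers. E10 1 to 4 had 20, 1, 7 and 7 counts of PSBY1. Their Poisson upper limits of 764 to 887 CPM all lie above the 626 CPM of WT 3. The values of the other genes tested rest on WT 1. Without it the log2 fold changes were 1.23 for PSBO1, 0.54 for PSBP1, 0.32 for PSBQ1 and 0.43 for PSBR1, and PSBY1 stayed negative at -0.33. Without E10 1 they ran from -1.46 for PSBR1 to -3.15 for PSBO1, each with an edgeR adjusted p of 0.539, and there the median of all identifiers was -2.53.

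Whether the difference between PDSKO and WT varied with the set was tested as the interaction of genotype and title set. There a negative value means a lower log2 fold change in A2 and D2 than in E10. No gene of the 6 passed, beside 3 of 4915 identifiers (0.061%). The estimates were -2.85 ± 1.57 (SE, edgeR adjusted p = 0.286) for PSBX, -1.23 ± 1.06 (0.501) for PSBR1, -0.28 ± 1.32 (0.928) for PSBO1, 0.27 ± 1.10 (0.912) for PSBP1, 0.72 ± 1.12 (0.734) for PSBQ1 and 0.89 ± 1.15 (0.670) for PSBY1. Each standard error was above 1 log2 unit, so a difference between the sets in PSBR1 or PSBX was not shown, and likeness was not shown either. Without WT 1 the PSBX estimate was -5.84 and passed (edgeR adjusted p = 0.0233), beside 194 of 3640 identifiers (5.33%).

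The parental sets were compared with each other in the fit with 4 groups, where a negative value is lower in WT 1 to 3. No gene of the 6 passed, beside 91 of 4915 identifiers (1.85%). PSBX had -2.19 ± 0.90 (SE, edgeR adjusted p = 0.205), PSBP1 -1.39 ± 0.77 (0.342), PSBQ1 -1.31 ± 0.78 (0.379), PSBO1 -1.30 ± 0.91 (0.469), PSBR1 -1.02 ± 0.72 (0.471) and PSBY1 0.06 ± 0.77 (0.976). For PSBR1 and PSBX each of WT 1 to 3 lay below each of WT 4 to 6, as it did for 12.7% of all identifiers tested. Without WT 1, PSBX had -4.68 ± 0.89 and passed (adjusted p = 0.00044), beside 475 of 3640 identifiers (13.0%). Without WT 2 and WT 3, PSBO1, PSBP1 and PSBQ1 had 0.45, 0.17 and 0.23, and the sign of these 3 genes thus rests on that pair of libraries.

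Beside the subunits, 5 lists of related genes were read in the same fits, as counts. In A2 and D2 against WT 4 to 6, 2 of the 6 subunits were called lower and 0 higher (median log2 fold change -2.05). Over all 8042 identifiers tested, 7.49% were called lower and the median was -0.92. Called lower were 9 of 11 tested photosystem II antenna identifiers (median -5.39) and 5 of 9 photosystem I subunits (median -3.59). So were 2 of 9 identifiers of cytochrome b6f, electron carriers and ATP synthase (median -1.34). For photosystem II assembly and repair it was 1 of 8, with a median of -0.87 near that of all identifiers. The list counts were not repeated with a WT library left out, where 0.232 to 1.60% of all identifiers were called. No identifier of these lists was higher past the test. Of 5 photoprotection identifiers none had enough counts to be tested. The antenna identifiers include near-identical copies, whose reads the authors discarded where they mapped to several places.

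The share of all counts taken by the 6 subunits differed less between WT 4 to 6 and the lines A2 and D2 than that of the antenna. The subunits took 2.31 ± 0.0414% of the counts in WT 4 to 6 (SD, n = 3), 3.96 times the 0.582% of A2 and 2.21 times the 1.05% of D2, while the antenna took 7.03 ± 0.358%, 41.6 times the share of A2 and 5.16 times that of D2. Without Cre07.g323800 the subunit ratios were 2.34 for A2 and 2.20 for D2, and those of the antenna 24.6 and 5.14. In counts, the antenna had 2.83 to 3.25 for each subunit count in WT 4 to 6, 1.30 in D2 and 0.290 in A2. In the first set it had 4.06 in WT 1 and 4.16 in E10 1, and 0.375 and 0.395 in WT 2 and WT 3 beside 0.381, 0.508 and 0.672 in E10 2 to 4. The assembly and repair list took 0.212 to 0.282% in all 6 WT libraries. Its mean share in WT 4 to 6 exceeded that of A2 by a factor of 3.31 and that of D2 by 2.27, or by 1.96 and 2.26 without Cre07.g323800, beside 3.96 and 2.21, or 2.34 and 2.20, for the subunits.

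**Figure D5:**
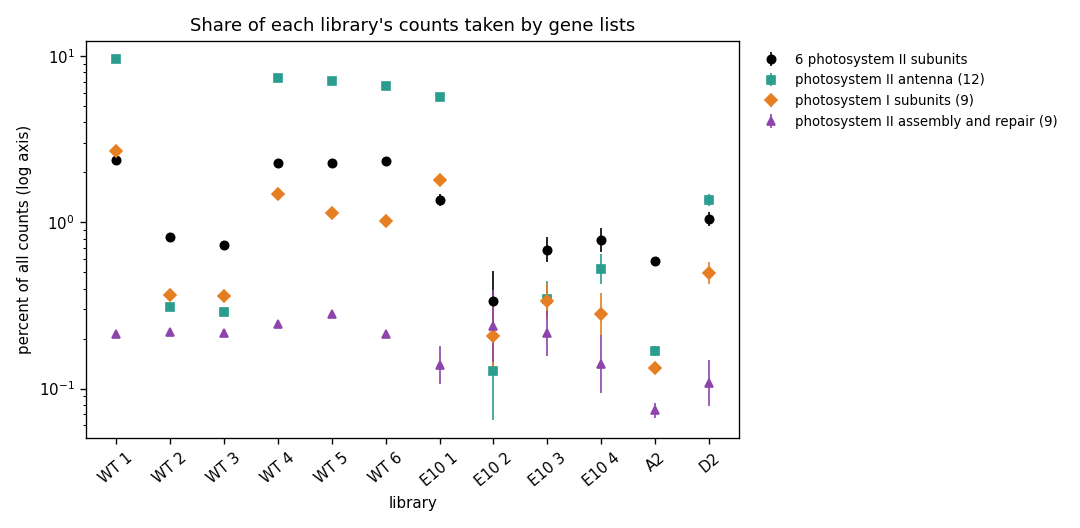
Percent of all counts (log axis) taken in each library by the 6 subunits and 3 related lists, with 95% Wilson intervals. The antenna falls from 9.66% in WT 1 to 0.308% in WT 2 and the subunits from 2.38% to 0.820%, while assembly and repair stays at 0.212 to 0.282% over the WT libraries and is at 0.0743% in A2 and 0.108% in D2.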

How the data were processed

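Total RNA of 12 samples was made into barcoded CEL-Seq libraries, per the labels' protocols. The authors deposited raw counts per identifier, for which BWA MEM mapped reads to the transcriptome named 281_v5.6, reads with several positions were dropped and MapAndGo did the counting, per the labels' protocols. The submitters' processing notes also name edgeR. Versions and the handling of molecular identifiers are not given in the sources used here. All 12 columns matched a title. In the RefSeq table of assembly v5.5, each of the 6 genes has 1 transcript and no overlapping gene. Tests used edgeR 4.0.16 in R 4.3.3: filterByExpr by genotype, TMM, glmQLFit, glmQLFTest, two-sided, Benjamini-Hochberg over all identifiers, threshold 0.05. Standard errors are the log2 fold change over the root of F. The method was tested on simulated counts, where the interaction recovered few of the changes put in. DESeq2 1.42.0, limma-voom 3.58.1, other scalings, filters and left-out libraries were alternatives. CPM used library totals. Python 3.11.15 gave shares and intervals. The genes and lists were chosen with earlier results of these data known. The genes named are the 6 subunits, the targeted gene and the 5 identifiers most like the subunits. Cre07.g323800 is named besides these for its share of the A2 counts, which was known beforehand. A step without WT 2 and WT 3, and one without E10 2 to 4, were added after seeing the data. Libraries with the same number did not all deviate together, so numbers were not used as pairs.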

Additional observations from a re-analysis of the deposited data

Results flagged for a closer look

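In PDSKO, PSBO1 stood at 3265 CPM in E10 1, away from the other 5 libraries, which ran from 159 to 1227 CPM. The gap was 0.656 of the whole range, above the critical 0.625 for 6 libraries. It was the 1 such library among 21 sets of values examined, and about 1 in 20 is marked by chance. E10 1 also had the profile closest to WT 1, where PSBO1 stood at 4881 CPM, and the part of that likeness in this value was not tested.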

How the results depend on the processing

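In PDSKO against WT all 6 genes had a negative log2 fold change under each of 25 alternatives, and in A2 and D2 against WT 4 to 6 under each of 14. What varied was the number that passed. It is given here with the percent of all identifiers called in the same fit. In PDSKO against WT it was 0 (0%), and 3 with no filter on low counts (7.86%, 242 identifiers higher and 1015 lower). With a library left out it ran from 0 to 2 (0 to 9.33%). In A2 and D2 it was 2 (10.9%), 1 under RLE scaling (9.70%) and 0 with library totals alone (6.76%). It was 4 with no filter (9.66%), 4 by limma-voom (5.71%) and 0 in the 4-group fit (12.7%). With a WT library left out it was 0 (0.232 to 1.60%). For WT 1 to 3 against WT 4 to 6 it was 0 (1.85%), 1 by limma-voom (3.78%) and 0 to 1 with a library left out (0.36 to 13.0%). For the interaction the left-out libraries gave 0 to 1 (0 to 5.33%). For E10 against WT 1 to 3 it was always 0 (at most 0.223%). RLE scaling moved the median log2 fold change of all identifiers from -0.38 to 0.29 in PDSKO and from -0.92 to -0.42 in A2 and D2, so changes are relative to the scaling. The share of counts taken by the 6 genes in A2 was 0.582%, and 1.03% without Cre07.g323800. With library numbers as a replicate block, 0 of the 6 genes passed in A2 and D2 (4 identifiers higher and 14 lower), against 2 without it. Deviations of same-numbered libraries correlated at -0.0929 to 0.378, and the best match was the own number for 1, 3 and 5 only. The numbers were therefore not used as pairs. E10 1 and WT 1 do share a number and a profile (Spearman rho 0.87), and what same-numbered libraries share beyond the number was not tested.

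Signs that turned were all in comparisons where no gene had passed, and their cause was not tested. In E10 against WT 1 to 3, PSBR1 was at 0.24 by limma-voom. With a library left out, the log2 fold change ran from -3.15 to 1.23 for PSBO1, -2.56 to 0.54 for PSBP1, -2.90 to 0.32 for PSBQ1 and -1.46 to 0.43 for PSBR1. In WT 1 to 3 against WT 4 to 6, PSBY1 was at -0.054 by limma-voom, -0.076 with the replicate block and -0.45 to 0.58 with a library left out, and without WT 2 and WT 3 PSBO1, PSBP1 and PSBQ1 were at 0.45, 0.17 and 0.23. In the interaction, library totals gave -0.55 for PSBP1 and -0.24 for PSBY1, no filter 0.035 and limma-voom 0.040 for PSBO1, and the fit without WT 2 and WT 3 1.21 for PSBO1. With a library left out it ran from -2.13 to 1.48 for PSBO1, -1.05 to 1.19 for PSBP1, -0.48 to 1.83 for PSBQ1 and -0.081 to 1.39 for PSBY1. Depth limits E10 most, where PSBX had 0 to 7 counts and was not tested against WT 1 to 3 in the main fit. With no filter, and with at least 10 CPM, all 6 genes were tested there and 0 passed.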

Other observations

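Among 986 identifiers with a mean of at least 100 CPM in WT, those whose log2(CPM + 10) followed the mean of the 6 subunits most closely over the 12 libraries were Cre06.g258800 (Pearson r 0.969), Cre16.g693500 (0.953), Cre06.g285250 (0.948), Cre12.g489300 (0.947) and Cre16.g673650 (0.947). The third and the fifth belong to the photosystem II antenna list. Cre06.g258800 stood at 3137 CPM on average in WT and 329 CPM in PDSKO. The libraries form clusters and 4 share a line, so these values describe likeness only. Each subunit set against the mean of the other 5 in the same way gave 0.951 for PSBP1, 0.928 for PSBO1, 0.873 for PSBX, 0.848 for PSBQ1, 0.697 for PSBY1 and 0.654 for PSBR1.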
